A study of Mus musculus with 6 samples.

Results

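The proteasome is the protein complex that degrades ubiquitin-tagged proteins, and its genes were followed in bulk RNA-seq of tumor endothelial cells (TECs) in which Notch signaling was switched on. The members were chosen by gene name: every row whose symbol began with Psma, Psmb, Psmc, Psmd, Psme, Psmf or Psmg and a number was taken. This gave 49 of the 23473 rows with RefSeq gene names. They comprised 16 standard core subunits, 17 subunits of the regulatory particle, 5 immunoproteasome genes (Psmb8, Psmb9, Psmb10, Psme1 and Psme2), 7 assembly chaperones, 3 other activators or inhibitors and Psmc3ip, a recombination factor that matched by name and is not a subunit. The family was taken up with results of the same comparison already known, so the differences between the groups are given as a description of these libraries.

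The TECs came from Lewis lung carcinoma (LLC) tumors, a transplanted model of mouse lung cancer, in C57BL/6 mice aged 8 weeks according to the labels, and the methods describe male mice. The 3 Ctrl mice carry the genotype label wild type. The 3 NICeCA mice carry a tamoxifen-inducible Cre recombinase driven by the endothelial Cdh5 promoter and, in the Rosa26 locus, the intracellular domain of Notch1 behind a floxed stop, so that Notch signaling becomes active without a ligand in cells with Cdh5 activity. Whether the Ctrl mice of these libraries carried Cre or received tamoxifen is not given in the labels. Cells were pulled out of the digested tumors with CD31 beads, and ribosomal RNA was depleted before sequencing. The comparison asks how the transcriptome of TECs differs when Notch is active in the endothelium.

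In the core particle, a pair of outer alpha rings controls the entry of proteins and a pair of inner beta rings carries the cutting sites, formed by Psmb5 (chymotrypsin-like), Psmb6 (caspase-like) and Psmb7 (trypsin-like). Interferon-gamma induces Psmb8, Psmb9 and Psmb10, which replace Psmb5, Psmb6 and Psmb7 in newly built particles, together with Psme1 and Psme2, the subunits of the activator PA28. The resulting immunoproteasome makes peptides for presentation by MHC class I and is abundant in leukocytes. The regulatory particle binds ubiquitinated proteins, removes the ubiquitin and uses a ring of ATPases to unfold the protein and push it into the core.

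Levels are given as RPKM, reads scaled to gene model length and to the reads of the library, in the order of replicates 1, 2 and 3. The RPKM values resolved into whole reads, and RefSeq rows took 27793301 to 30769916 reads in a library. The Notch1 row, which counts endogenous and transgene reads together, had a log2 fold change of 0.11 (SE 0.20, adjusted p = 0.71), and the Notch target Hey1 was higher in NICeCA, with a log2 fold change of 1.10 (SE 0.27, adjusted p = 0.041). All 15 endothelial markers were detected, with a summed level of 242 to 622 RPKM in Ctrl and 536 to 703 RPKM in NICeCA. That of 9 macrophage or monocyte markers was 6551 to 9451 RPKM in Ctrl and 4412 to 8353 RPKM in NICeCA. Lyz2 alone gave 2611 to 5555 RPKM of it. These lists hold genes of unlike levels, so their sums do not give the share of either cell type. The labels state a TEC purity of over 90%. The summed level of 8 neutrophil markers was 118 to 273 RPKM in Ctrl and 601 to 1673 RPKM in NICeCA, and the groups did not overlap. In such bulk samples, fewer cells of a type and less RNA per cell cannot be told apart.

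Promoter letters are shown first for the genes on which the comparison of induced and standard subunits turns. RefSeq start-site windows of the GRCm38.p6 build, reaching from 250 bases before to 50 bases after the start, were at hand for 41 of the 49 members. The core letters of the RBPJ site, TGGGAA or their reverse complement, were of interest because RBPJ is the DNA-binding partner of the Notch1 intracellular domain. A gene with several windows was counted once if any of them held the letters. They were found for 12 of 41 members and for 28.3% of all 27025 genes with a window. The members were all 5 immunoproteasome genes, 1 of 12 standard core genes, 3 of 14 regulatory particle genes and the chaperones Psmd5, Psmd10 and Psmg4. In the following stretches of 30 bases, read in the direction of each gene, capitals mark these letters at the site nearest the start.
Psmb8, chr17:34198086-34198115, plus strand: agtcctccgctgTTCCCAgaagatgccccc
Psmb9, chr17:34187502-34187531, minus strand: cttgcgtgaattTTCCCAtcccaggcccca
Psmb10, chr8:105938502-105938531, minus strand: acctgagtttggTTCCCAacgcccacgtgg
Psme1, chr14:55578302-55578331, plus strand: ggcaggcgaggaTGGGAAggggcaggggtg
Psme2, chr14:55591033-55591062, minus strand: gtggcaactagcTGGGAAtggctgaggggg
Relative to the start site, the first capital lay at -97 in Psmb8, -189 in Psmb9, -127 in Psmb10, -180 in Psme1 and -29 in Psme2. In Psmb8, the capitals overlap the letters of a gamma-activated sequence (TTCNNNGAA), which was found for 3 of 41 members and 9.6% of all genes.

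The factor NFE2L1 drives proteasome genes when proteasome activity is short. The antioxidant response element core (TGACNNNGC), the letters read by NFE2L1 and NFE2L2, was found for 6 of 41 members and 14.0% of all genes. It was found for 2 of 12 standard core genes, Psmb5 and Psmb6, and for 2 of 14 regulatory particle genes. Capitals mark it here for Psmb5 and Psmb6.
Psmb5, chr14:54618023-54618052, minus strand: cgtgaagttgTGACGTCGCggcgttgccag
Psmb6, chr11:70525338-70525367, plus strand: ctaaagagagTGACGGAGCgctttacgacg
It was found for 0 of the 5 immunoproteasome genes. Searched on both strands in the same way, the interferon regulatory factor core (AANNGAAA) was found for 13 members and 26.7% of all genes, the CCAAT box for 15 and 41.1%, and the canonical E-box (CACGTG) for 4 and 8.1%. In the standard core, regulatory particle and immunoproteasome, the interferon letters were found for 4 of 12, 5 of 14 and 1 of 5 genes. In the same order, the CCAAT box was found for 7, 4 and 1, and the E-box for 1, 0 and 1. These matches describe the letters of the windows and show no binding.

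Of the 49 members, 47 reached a mean of 1 RPKM over the 6 libraries and entered the comparison of all 12320 RefSeq rows at that level. Each of the 47 was above 1 RPKM in every library. Compared on log2(RPKM + 1) with limma and Benjamini-Hochberg adjustment over all 12320 rows, 6 members were higher in NICeCA at an adjusted p under 0.05, where 5.88% of all tested rows were. No member was lower, where 7.68% of all tested rows were; at an unadjusted p under 0.05 there were 20 members higher and 0 lower, and limma voom on the recovered reads called 5 higher. The 6 were the core subunits Psma2, Psma6, Psmb6 and Psmb7, the lid subunit Psmd8 and the assembly chaperone Psmd10. The calls over all rows varied with the libraries, and those of the members with them. Without replicate 1 or 2 of Ctrl, or replicate 1 or 2 of NICeCA, 0 members passed, where 4.07%, 1.99%, 0.727% and 0.138% of all rows were higher, and without Ctrl replicate 3 there were 9, where 7.41% were. The median log2 fold change was 0.43 over the 14 tested core subunits, 0.24 over the 17 regulatory particle subunits and 0.15 over the 5 immunoproteasome genes, against -0.05 over all tested rows. After quantile normalization the 3 medians were 0.17, 0.05 and -0.11, so that the immunoproteasome median changed sign.

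For 27 of the 47 members all 3 NICeCA libraries lay above all 3 Ctrl libraries, and for 0 members below, where 16.5% of all tested rows lay above and 24.4% below. The 27 were all 14 tested core subunits, 10 of 17 regulatory particle subunits and 3 of 7 chaperones, and none of the 5 immunoproteasome genes. This separation depended on the scale: scaling by a trimmed mean gave 14 of 14 core and 12 of 17 regulatory particle subunits apart upward, where 21.2% of all rows were. After quantile normalization it held for 4 of the 14 and 6 of the 17, where 17.3% of all rows were above and 20.9% below, with 1 core and 1 regulatory particle subunit apart downward. On that scale 11 of the 14 core and 11 of the 17 regulatory particle subunits had log2 fold changes above 0. After each library was freed of its trend on gene length, it held for 6 and 6, where 15.8% of all rows were above. The immunoproteasome count stayed at 0 of 5 upward on all 3 scales, with 1 gene apart downward after quantile normalization. The plot of fold changes by role shows these values for every tested member.

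**Figure D1:**
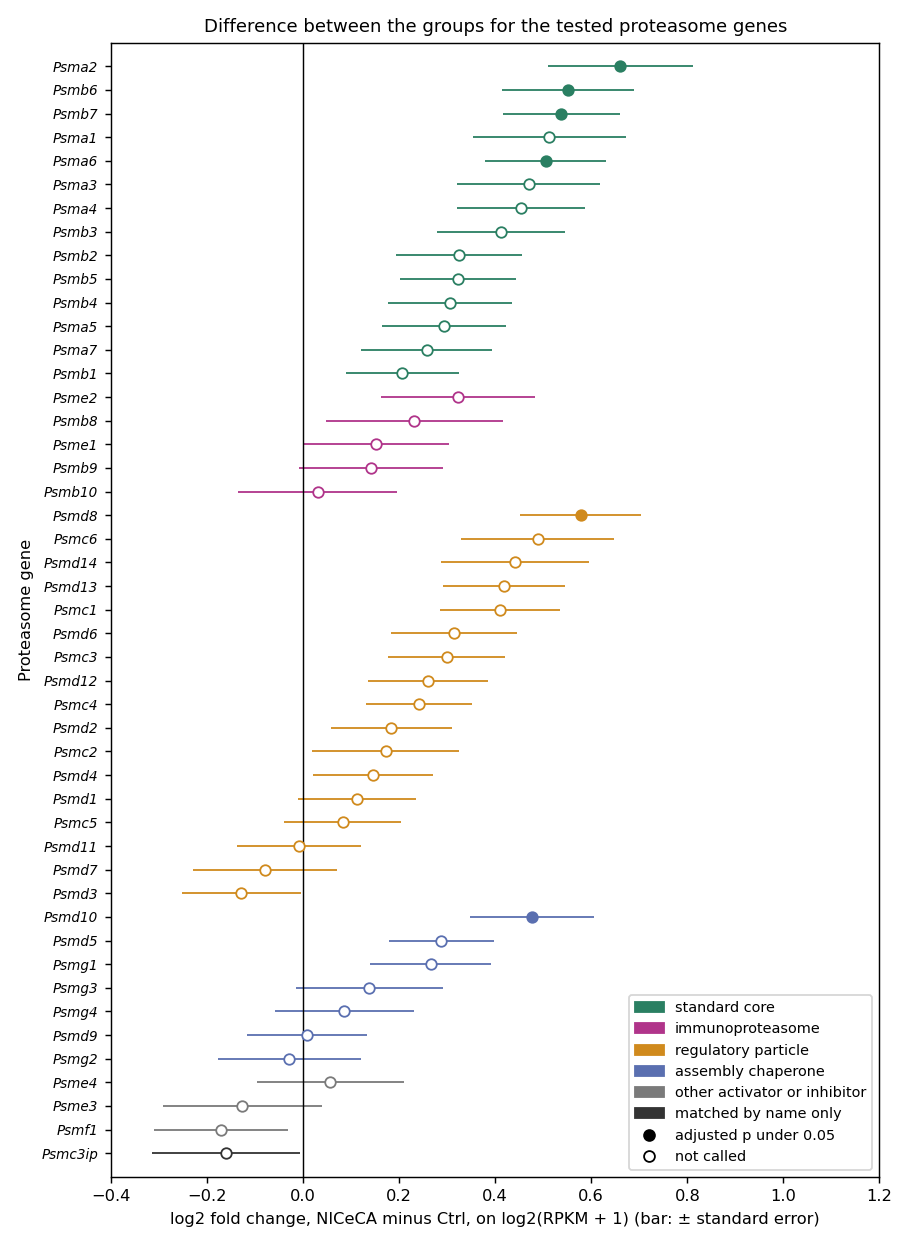
Log2 fold change between NICeCA and Ctrl (horizontal axis, on log2(RPKM + 1)) of the 47 tested proteasome genes, 1 per line, coloured by role; bars are standard errors from limma with 3 libraries a group, and filled points have an adjusted p under 0.05. The 14 core subunits run from 0.21 to 0.66, and the 5 immunoproteasome genes from 0.03 to 0.32 with no filled point.

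In the alpha ring, Psma2 had the largest difference of the whole family. Its levels were 50.6, 46.2 and 51.6 RPKM in Ctrl and 82.6, 90.6 and 65.2 RPKM in NICeCA, a log2 fold change of 0.66 (SE 0.15, adjusted p = 0.036). The groups were well apart, with NICeCA replicate 3 nearest to Ctrl. Psma6 stood at 44.5, 45.2 and 50.3 RPKM in Ctrl and 71.8, 68.0 and 60.4 RPKM in NICeCA (log2 fold change 0.50, SE 0.13, adjusted p = 0.041). Again replicate 3 was the lowest NICeCA library. The Psma6 gene lies on the same strand inside the longer row Mir1198, and how the authors' counting split their reads is not known. Psma7 had the smallest difference of the ring, with 62.4, 75.5 and 76.1 RPKM in Ctrl against 91.5, 86.8 and 77.7 RPKM in NICeCA (log2 fold change 0.26, SE 0.14, adjusted p = 0.21). Its groups were apart by a narrow gap between Ctrl replicate 3 and NICeCA replicate 3. Psma1, Psma3, Psma4 and Psma5 had log2 fold changes from 0.29 to 0.51 with adjusted p from 0.057 to 0.15. Psma3 overlaps 3110056K07Rik and Psma4 overlaps AY074887 on the opposite strand, both rows with a mean under 5 RPKM.

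The beta ring held the highest level of any core subunit, that of Psmb4, a structural subunit, which led the core in all 6 libraries at 100 to 144 RPKM. Of its catalytic subunits, Psmb6 differed most. Its 3 Ctrl libraries were nearly equal at 59.0, 58.8 and 58.4 RPKM, and the NICeCA libraries stood at 96.1, 91.95 and 73.5 RPKM (log2 fold change 0.55, SE 0.14, adjusted p = 0.042). Psmb7 was at 41.6, 44.9 and 46.1 RPKM in Ctrl and 64.4, 70.0 and 59.7 RPKM in NICeCA (log2 fold change 0.54, SE 0.12, adjusted p = 0.035). Both genes had every NICeCA library above every Ctrl library. Psmb5 did not pass the test, with 49.2, 51.7 and 54.4 RPKM in Ctrl and 64.3, 70.5 and 60.4 RPKM in NICeCA (log2 fold change 0.32, SE 0.12, adjusted p = 0.10). Its groups did not overlap either, although a microRNA row, Mir686, lies within Psmb5 on the same strand. Psmb1, a structural subunit, had the smallest difference of the ring, 70.9, 80.2 and 79.4 RPKM against 89.9, 90.7 and 85.6 RPKM (log2 fold change 0.21, SE 0.12, adjusted p = 0.24), and its sign turned to -0.13 after quantile normalization. Psmb2, Psmb3 and Psmb4 had log2 fold changes of 0.32, 0.41 and 0.31, with adjusted p from 0.073 to 0.13, and Psmb4 turned to -0.05 after quantile normalization.

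The immunoproteasome genes had mean levels of 36.7 to 109 RPKM over the 6 libraries, against 36.1 to 121 RPKM for the tested standard core, and none of the 5 passed the test or had an unadjusted p under 0.05. Psmb8, which takes the place of Psmb5, stood at 87.2, 65.8 and 91.7 RPKM in Ctrl and 105, 106 and 77.2 RPKM in NICeCA (log2 fold change 0.23, SE 0.18, adjusted p = 0.40). The groups overlapped because NICeCA replicate 3 lay below Ctrl replicates 1 and 3. Psmb9, which takes the place of Psmb6, stood at 34.3, 32.1 and 37.9 RPKM in Ctrl and 42.9, 41.3 and 31.8 RPKM in NICeCA (log2 fold change 0.14, SE 0.15, adjusted p = 0.53). Here NICeCA replicate 3 was the lowest of all 6 libraries. Psmb10, which takes the place of Psmb7, stood at 51.9, 51.5 and 56.8 RPKM in Ctrl and 62.9, 59.9 and 42.8 RPKM in NICeCA (log2 fold change 0.03, SE 0.17, adjusted p = 0.91). The same library was again the lowest of all. Psmb8 (chr17:34198195-34201454) and Psmb9 (chr17:34182099-34187330) flank Tap1 in the MHC region, while Psmb10 lies on another chromosome (chr8:105935728-105938392).

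The PA28 activator genes are near neighbours, Psme1 at chr14:55578494-55581527 and Psme2 at chr14:55587440-55591101. Psme1 was at 93.5, 98.2 and 119 RPKM in Ctrl and 125, 121 and 99.7 RPKM in NICeCA (log2 fold change 0.15, SE 0.15, adjusted p = 0.50). Psme2 was at 51.1, 59.4 and 70.1 RPKM in Ctrl and 81.9, 79.3 and 64.7 RPKM in NICeCA (log2 fold change 0.32, SE 0.16, adjusted p = 0.19). In both, replicates 1 and 2 of NICeCA lay above every Ctrl library and replicate 3 fell within the Ctrl range. NICeCA replicate 3 thus had the lowest NICeCA level of all 5 immunoproteasome genes. It also had the lowest macrophage or monocyte marker sum of the 6 libraries, 4412 RPKM, of which Lyz2 gave 2611 RPKM. That list was split, with log2 fold changes above 0 for 3 markers and under 0 for 6. Cd68 was at 133 to 148 RPKM in Ctrl and at 230.5 RPKM in NICeCA replicate 3. The same library had the highest neutrophil marker sum, 1673 RPKM, and the part of either cell type in these levels was not tested.

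**Figure D2:**
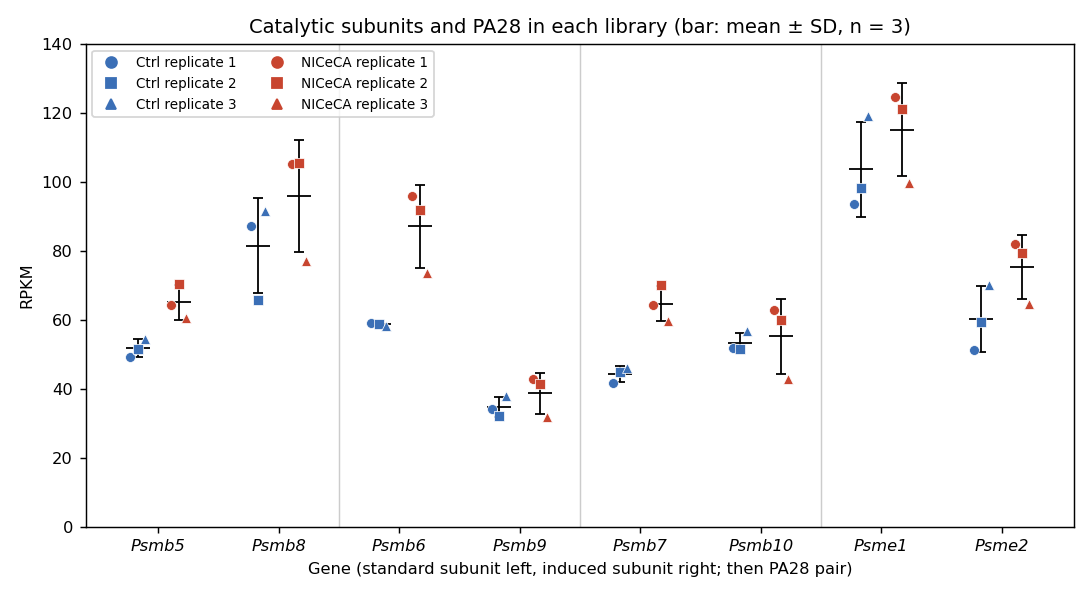
Level in RPKM (vertical axis) of each standard catalytic subunit beside the induced subunit that replaces it, and of the 2 PA28 genes, in each library; points are libraries and black bars the mean ± SD of 3 libraries. The groups are apart for Psmb5, Psmb6 and Psmb7 and overlap for Psmb8, Psmb9, Psmb10, Psme1 and Psme2, where NICeCA replicate 3 is the lowest NICeCA library.

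The balance of induced and standard subunits was read as a ratio of RPKM values within each library, where a factor that scales a whole library cancels. The ratio Psmb9 to Psmb6 was 0.58, 0.55 and 0.65 in Ctrl and 0.45, 0.45 and 0.43 in NICeCA, a mean of 0.592 ± 0.053 (SD, n = 3) against 0.443 ± 0.0090. All NICeCA libraries, replicate 3 included, lay below all Ctrl libraries. The ratio Psmb10 to Psmb7 was 1.25, 1.15 and 1.23 in Ctrl and 0.98, 0.86 and 0.72 in NICeCA, a mean of 1.21 ± 0.055 (SD, n = 3) against 0.850 ± 0.129. As deposited, the induced gene had the higher level per length in Ctrl and the standard gene in NICeCA. The ratio Psmb8 to Psmb5 overlapped, with 1.77, 1.27 and 1.69 in Ctrl and 1.64, 1.50 and 1.28 in NICeCA and means of 1.58 ± 0.27 (SD, n = 3) and 1.47 ± 0.18. The induced gene led in every library.

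Within PA28, the ratio Psme1 to Psme2 was 1.83, 1.65 and 1.70 in Ctrl and 1.52, 1.53 and 1.54 in NICeCA, and the groups did not overlap. The 3 ratios that were apart stayed apart in the same direction after quantile normalization. Psmb9 to Psmb6 and Psmb10 to Psmb7 also did so after removal of the length trend. Psme1 and Psme2 both have a length of 977 bases, so that removal could not change their ratio. Scaling by a trimmed mean applies the same factor to every gene of a library, so it leaves all the ratios nearly unchanged and is no check on them. The Psmb8 to Psmb5 ratio overlapped on all of these scales. The mean log2 difference of Psmb9 and Psmb6 was -0.74 in Ctrl and -1.15 in NICeCA as deposited, and -0.80 and -1.07 after quantile normalization. That of Psmb10 and Psmb7 was 0.27 and -0.24 as deposited, and 0.29 and -0.23 after quantile normalization. With the length trend removed it was 0.49 and 0.05, so that the induced gene led on average in both groups on that scale. No test was run on the ratios, and how often other pairs of genes lie apart was not counted. With 3 libraries a group the smallest two-sided p of an exact permutation test is 0.1. All these scales reuse the same libraries, and the denominators Psmb6 and Psmb7 were among the members called higher. The summed level of 9 pan-leukocyte markers was 953, 815 and 1221 RPKM in Ctrl and 1380, 1283 and 1064 RPKM in NICeCA. The groups overlapped, as they did for the macrophage or monocyte markers. All 9 pan-leukocyte markers still had log2 fold changes above 0 (median 0.25), and 1, Cd53, was called higher. So did all 15 endothelial markers (median 0.66), with 2 called higher, where 5.88% of all tested rows were. The summed neutrophil markers were apart upward in NICeCA. The part of these cell types in the ratios was not tested.

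**Figure D3:**
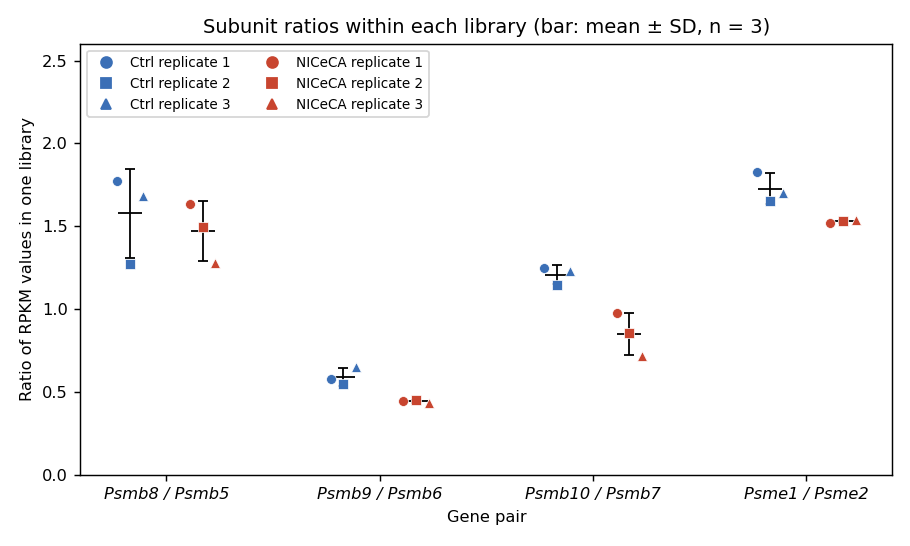
Ratio of the RPKM values of 2 genes within each library (vertical axis, no unit) for 4 gene pairs; points are libraries and black bars the mean ± SD of 3 libraries. NICeCA lies below Ctrl without overlap for Psmb9 / Psmb6, Psmb10 / Psmb7 and Psme1 / Psme2, and overlaps with it for Psmb8 / Psmb5.

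In the regulatory particle, the 6 ATPases (Psmc1 to Psmc6) had log2 fold changes from 0.08 to 0.49, none past the test, and 4 of them had groups that did not overlap. Psmc6 had the largest, with 16.8, 16.1 and 22.3 RPKM in Ctrl and 25.3, 29.7 and 23.3 RPKM in NICeCA (log2 fold change 0.49, SE 0.16, adjusted p = 0.075). Ctrl replicate 3 stood close to NICeCA, and without that library the log2 fold change was 0.63 and passed the test. Psmc5 had the smallest, with 31.4, 35.9 and 35.4 RPKM against 39.0, 36.3 and 33.6 RPKM (log2 fold change 0.08, SE 0.12, adjusted p = 0.65), and its groups overlapped. The other subunits of the base among the members are the large scaffold Psmd1, the ubiquitin-like domain receptor Psmd2 and the ubiquitin receptor Psmd4. Psmd2 was at 43.3, 49.7 and 50.5 RPKM in Ctrl and 59.4, 51.2 and 52.8 RPKM in NICeCA (log2 fold change 0.18, SE 0.13, adjusted p = 0.33), with a narrow gap between the groups. Psmd1 was at 18.8, 21.6 and 22.7 RPKM against 23.9, 21.3 and 23.1 RPKM (log2 fold change 0.11, SE 0.12, adjusted p = 0.54) and overlapped. The gene Htr2b lies within Psmd1 on the opposite strand, with a mean of 1.68 RPKM.

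The lid held both the largest and the smallest difference of the regulatory particle. Psmd8, a small subunit that joins late in lid assembly, had the highest level of the particle in all 6 libraries, at 64.0, 70.9 and 73.8 RPKM in Ctrl and 114, 99.3 and 99.8 RPKM in NICeCA (log2 fold change 0.58, SE 0.13, adjusted p = 0.033). Its groups were far apart, and its adjusted p was the lowest of the family. Psmd3 had 35.6, 43.5 and 40.7 RPKM in Ctrl and 38.1, 34.5 and 36.4 RPKM in NICeCA (log2 fold change -0.13, SE 0.12, adjusted p = 0.49), and the groups overlapped. Psmd7 and Psmd11 also had log2 fold changes under 0, of -0.08 and -0.01, with adjusted p of 0.73 and 0.97. Psmd14, the enzyme that cuts the ubiquitin chain from the substrate, and Psmd13 had log2 fold changes of 0.44 and 0.42, with adjusted p of 0.087 and 0.062. Psmd7 is the direct partner of Psmd14 in the lid, and the levels of the pair were 19.1 to 26.4 RPKM for Psmd7 and 17.8 to 29.5 RPKM for Psmd14 over all 6 libraries.

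The assembly chaperones are not part of the finished particle and had lower levels, with means of 6.29 to 20.7 RPKM. Psmd10 (gankyrin), which escorts an ATPase during assembly of the base, was at 7.12, 7.66 and 8.03 RPKM in Ctrl and 10.8, 12.6 and 9.65 RPKM in NICeCA (log2 fold change 0.48, SE 0.13, adjusted p = 0.048). It was the only member that still passed after quantile normalization. Psmd5 and Psmd9, the other base chaperones, had log2 fold changes of 0.29 and 0.01. Psmg1 and Psmg2, which form a pair that guides the alpha ring, had log2 fold changes of 0.27 and -0.03, with adjusted p of 0.17 and 0.91. Psmg2 had the smallest of the chaperones, with 5.08, 6.43 and 7.70 RPKM in Ctrl and 6.44, 6.02 and 6.09 RPKM in NICeCA, and its sign turned under scaling by a trimmed mean (0.03) and quantile normalization (0.09). Psmg3 and Psmg4 had overlapping groups.

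The activators outside the interferon set and the inhibitor had overlapping groups in each case. Psme3, the nuclear PA28 gamma, was at 14.7, 22.7 and 21.0 RPKM in Ctrl and 16.9, 17.5 and 17.9 RPKM in NICeCA (log2 fold change -0.13, SE 0.17, adjusted p = 0.61). Psme4, the large single-chain activator, was at 9.66, 9.05 and 13.1 RPKM against 11.8, 10.6 and 10.4 RPKM (log2 fold change 0.06, SE 0.15, adjusted p = 0.81). Psmf1, an inhibitor of the core in the test tube, was at 4.21, 5.81 and 5.56 RPKM against 4.38, 4.22 and 4.81 RPKM (log2 fold change -0.17, SE 0.14, adjusted p = 0.41), the lowest value of the family. Psmc3ip, the name match that is no subunit, was at 3.21 to 4.47 RPKM in Ctrl and 2.86 to 3.98 RPKM in NICeCA. Both core members that were not tested are known from a single tissue. Psma8, the alpha subunit of the testis, was at 0.15 to 0.64 RPKM on 10 to 42 reads, and Psmb11, the beta subunit of the thymic epithelium and the chromosome 14 neighbour of Psmb5, was at 0 to 0.044 RPKM on 0 to 7 reads.

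Gene length moved with the differences, in the family and in all genes alike. The tested members are mostly short: with all tested rows split into 4 length bins of nearly equal size, 36 of the 47 lay in the shortest bin, up to 1668 bases. All tested rows of that bin had a median log2 fold change of 0.11 and 9.90% of them were called higher, and the members in it had a median of 0.31 and all 6 calls. In the longest bin, which held 1 member (Psme4), the median of all tested rows was -0.22 and 1.66% were called higher. Spearman's rho of length and log2 fold change was -0.29 over the 47 members and -0.29 over all 12320 tested rows, a description across genes that share the same 6 libraries. With each library freed of its trend on length, 0 members passed (lowest adjusted p = 0.053, Psmd8), and the medians were 0.22 for the core, 0.19 for the regulatory particle and -0.04 for the immunoproteasome. The core and immunoproteasome genes had like lengths, 731 to 1420 and 806 to 1270 bases.

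**Figure D4:**
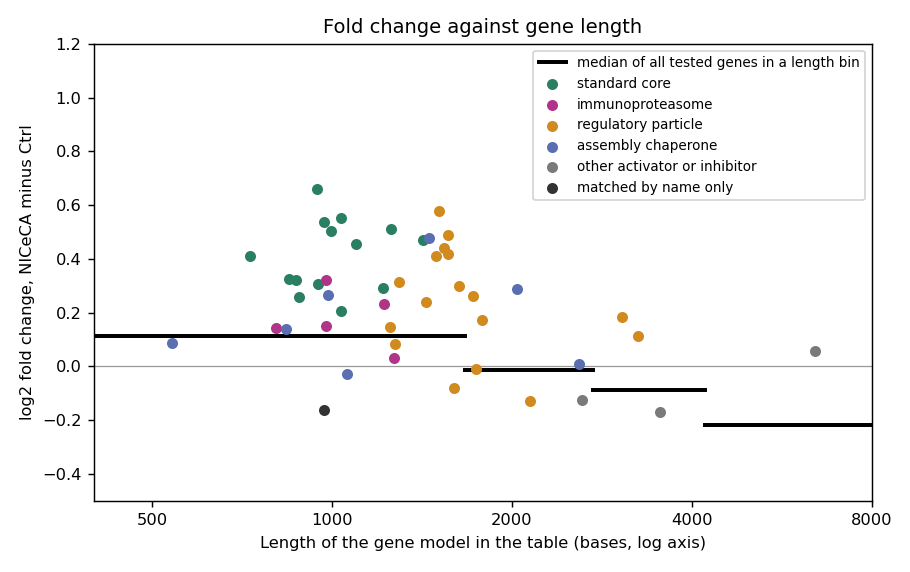
Log2 fold change between NICeCA and Ctrl (vertical axis) against the length of the gene model in bases (horizontal log axis) for the 47 tested proteasome genes, coloured by role; black lines are the medians of all tested genes in each of 4 length bins. The medians fall from 0.11 in the shortest bin to -0.22 in the longest, and the core subunits lie above the median of their bin.

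Other proteins that bind or build the proteasome were taken as a list of 11 tested genes, of which 3 passed as higher and 0 as lower, with a median log2 fold change of 0.19. For this and the next lists, the shares over all tested rows are 5.88% higher and 7.68% lower. Shfm1, the smallest lid subunit, which the naming rule does not catch, was at 134, 119 and 135 RPKM in Ctrl and 210, 188 and 184 RPKM in NICeCA (log2 fold change 0.58, SE 0.13, adjusted p = 0.033). Zfand2a and Zfand5, zinc finger proteins that bind the proteasome under stress, had log2 fold changes of 0.95 and 0.61 (adjusted p = 0.012 and 0.040), the first the largest of the list, and all 3 genes had NICeCA above Ctrl in every library. The list of 14 ubiquitin genes and shuttle factors had 1 call, the polyubiquitin gene Ubb, at 512 to 556 RPKM in Ctrl and 755 to 939 RPKM in NICeCA (log2 fold change 0.61, adjusted p = 0.037), and a median of 0.05. Of 11 genes that regulate proteasome genes, Maff and Mafk, small partners of the NFE2L factors, were higher (log2 fold changes 1.14 and 0.45, adjusted p = 0.011 and 0.049). The factors themselves did not pass: Nfe2l1 had a log2 fold change of -0.14 (adjusted p = 0.45) and Nfe2l2 of 0.04 (adjusted p = 0.88).

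The interferon-gamma axis, which induces the immunoproteasome, had 15 tested genes, of which 2 were higher and 1 lower, with a median log2 fold change of 0.17. Irf9 was higher (log2 fold change 0.62, adjusted p = 0.037), as was Socs3, an inhibitor of cytokine signaling (0.59, adjusted p = 0.038). Nlrc5, the transactivator of MHC class I, Tap1 and Psmb9, was lower, at 15.6, 15.1 and 19.4 RPKM in Ctrl and 9.30, 10.4 and 10.9 RPKM in NICeCA (log2 fold change -0.65, SE 0.14, adjusted p = 0.030). Its groups did not overlap. Irf7 had the largest value of the list, 1.04 (SE 0.31, adjusted p = 0.059). Irf1, an activator of Psmb9 after interferon-gamma, had a log2 fold change of 0.02 (SE 0.17, adjusted p = 0.94). Of 11 genes that load peptides on class I, 0 passed in either direction (median 0.16), and B2m, the light chain, had the largest value, 0.44 (SE 0.20, adjusted p = 0.15).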

How the data were processed

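Bulk RNA-seq libraries of TECs from 3 Ctrl and 3 NICeCA mice were analysed, grouped by the sample titles and joined to the table by library label. The authors deposited RPKM values for 56826 rows, made from reads aligned with TopHat2 according to the submitters' processing notes; the sources used here do not give how reads were counted, or whether by strand. These notes name mm9, but the positions are those of GRCm38, where all 49 members overlap their current gene. RPKM times length gave whole reads within 0.05 for 100.0% of values under 1000 reads.

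RefSeq rows with a mean of at least 1 RPKM were compared on log2(RPKM + 1) with limma 3.58.1 in R 4.3.3 (mean-variance trend, two-sided, Benjamini-Hochberg over 12320 rows). Fold changes on this scale understate those of low genes. The procedure was tested on simulated data with changes larger than those of the members and no length trend. That test does not cover differences of the members' size. The members, roles and lists were chosen with earlier results of these data known. Every member could be named; values per library were given for catalytic pairs, PA28, the other activators and inhibitor, called members and the extremes of each role. Non-members from the lists were named if called or the largest of their list, and Nfe2l1, Nfe2l2 and Irf1 were added after their values were seen. Notch1 and Hey1, which are in none of the lists, were named as well, and other Notch targets were not. Alternatives were another pseudocount, filters, scalings, limma without the trend, voom on recovered reads, FANTOM3 rows, a replicate block and leaving out each library; removing the length trend and the separation of groups under each scaling were added after seeing the data. The methods speak of pairs of mice and 1 collection day for all, while the labels say that days differed; no day is tied to a library. P-values set the difference between the group means against the spread between these libraries, moderated over all tested rows. RefSeq promoter windows (GRCm38.p6) were searched on both strands.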

Additional observations from a re-analysis of the deposited data

How the results depend on the processing

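The count of members higher in NICeCA, 6 in the comparison as designed, was 6 with a pseudocount of 0.1 or a mean of at least 5 RPKM, 5 with limma without the trend, voom or FANTOM3 rows, 12 with scaling by a trimmed mean, 1 with quantile normalization and 0 with no filter on low values (lowest adjusted p = 0.050), the length trend removed or the replicate block. The shares over all rows moved too: 5.88% were higher as designed, 8.13% with scaling by a trimmed mean, 3.62% with quantile normalization, 1.18% with no filter, 3.39% with the length trend removed and 2.65% with the replicate block. Leaving out 1 library gave 0 to 9 members and 0.138% to 7.41% of all rows: it was 0 without Ctrl replicate 1, Ctrl replicate 2, NICeCA replicate 1 or NICeCA replicate 2, 6 without NICeCA replicate 3 and 9 without Ctrl replicate 3, of which 4 were among the 6. No member was called lower and no immunoproteasome gene was called under any of these settings. Quantile normalization moved the median log2 fold change to 0.17 for the core, 0.05 for the regulatory particle and -0.11 for the immunoproteasome, and removing the length trend moved the core to 0.22; the cause was not tested. Over all tested rows the median lay between -0.07 and 0.01 under all settings.

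Over all 47 tested members, 11 changed sign under quantile normalization, namely Psma7 (-0.07), Psmb1 (-0.13), Psmb4 (-0.05), Psmb8 (-0.11), Psmb9 (-0.04), Psmb10 (-0.23), Psmc5 (-0.09), Psmd2 (-0.06), Psmd4 (-0.15), Psme1 (-0.20) and Psmg2 (0.09), and 6 with the length trend removed, namely Psmb9 (-0.12), Psmb10 (-0.10), Psmc5 (-0.05), Psme1 (-0.04), Psmg3 (-0.11) and Psmg4 (-0.31). Scaling by a trimmed mean turned Psmg2 (0.03) and Psmd11 (0.05). Leaving out 1 library gave -0.16 to 0.10 for Psmg2 (above 0 without Ctrl replicate 3), -0.04 to 0.21 for Psme4 (under 0 without Ctrl replicate 2) and -0.07 to 0.20 for Psmb10 (under 0 without NICeCA replicate 1 or 2), and Psmd7, Psmd9, Psmd11 and Psmg4 also turned without 1 library, to between -0.07 and 0.09. Of the comparisons of 27 single results with an alternative, 331 kept the result, 52 no longer passed the threshold, 2 newly passed it and 18 changed sign. Only the 6 called genes could stop passing, and all 52 came from them. The kept results include genes not called in either fit, and ratios, so this tally does not measure how stable the 6 calls were. For genes, a kept result had the same direction and side of the threshold. The ratios Psmb8/Psmb5, Psmb9/Psmb6 and Psmb10/Psmb7 have no p. They were kept if the difference between the group means moved by less than the pooled SD. The replicate numbers gave no sign of pairing the libraries, as deviations of same-numbered libraries correlated at 0.12, -0.34 and -0.18. Between Ctrl and NICeCA libraries of different number they correlated at -0.32 to 0.44. Which mice formed the pairs named in the methods is not known, and no other pairing was modelled. The replicate block lowered the calls over all tested rows from 725 higher and 946 lower to 327 and 209. With 3 libraries a group and 1 tumor each, small differences were not detectable, and intervals of counting error do not cover this spread.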
